A study of Homo sapiens with 9 samples.

Results

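The TGF-beta and BMP signalling genes examined here are a list of 46 genes, made up of 9 ligands, 12 receptors, 8 SMADs, 13 regulators and 4 ID target genes. They were chosen by name with earlier results of these data known, so the shares given below describe the list and do not test the pathway. All 46 were found by symbol in the authors' deposited table, which holds 60605 gene identifiers. Their RNA was compared between KG-1a cells of PRMT2 knockout clone 1 (KO clone 1), of PRMT2 knockout clone 2 (KO clone 2) and of the PRMT2 wild type (WT), with 3 libraries in each group. KG-1a is a CD34-positive human acute myeloid leukaemia line. Each knockout group is a single CRISPR/Cas9 clone, and nothing in the labels tells if the WT cells were a clone too, so an effect of PRMT2 loss and an effect of picking 1 clone cannot be told apart within a clone. All groups were grown in the same medium with serum and received no drug. It is not stated whether the replicates were grown separately, so each p-value measures the spread between libraries, which may be technical.

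TGF-beta, activin and BMP ligands bind pairs of type I and type II serine/threonine kinase receptors at the cell surface. Activated receptors phosphorylate receptor SMADs, SMAD2 and SMAD3 for TGF-beta and activin, and SMAD1, SMAD5 and SMAD9 for BMP, which enter the nucleus with SMAD4. SMAD6 and SMAD7 are inhibitory SMADs, and the ID genes, which encode dominant-negative partners of basic helix-loop-helix factors, are textbook targets of BMP signalling. In blood-forming cells TGF-beta is best known for restraining the proliferation of stem and progenitor cells.

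Counted read pairs per library ran between 28006342 and 43149410. The CD34 gene and the other 5 KG-1a markers were present in all groups, with summed levels of 2777 to 2871 counts per 1000000 counted pairs (CPM) in KO clone 1, 2738 to 2809 CPM in KO clone 2 and 2668 to 2728 CPM in WT. PRMT2 RNA was lower in the clones, at 20.7 ± 0.544 CPM in KO clone 1 and 21.2 ± 0.153 CPM in KO clone 2, against 39.4 ± 0.393 CPM in WT (SD, n = 3 each), log2 fold changes of -0.93 and -0.89 with edgeR adjusted p-values of 7.79e-18 and 1.51e-17. KO clone 1 replicate 1 stood apart, where multimapping pairs made up 13.3% of the library, against 3.86% to 4.51% in the remaining 8. Without it, 12 rather than 13 of the genes described here were called in KO clone 1. Of the 6 markers of T and NK cells, 4 were tested, and all 4 were lower at the adjusted p in each clone. Their summed level was 180 to 187 CPM in KO clone 1, 238 to 254 CPM in KO clone 2 and 446 to 474 CPM in WT, and their part in the results below was not tested. The endothelial marker CDH5 and the erythroid marker HBB had 0 counts in all libraries, and the 5 monocyte markers, mostly VCAN, summed to 2.49 to 3.04 CPM in KO clone 1, 11.9 to 12.4 CPM in KO clone 2 and 19.5 to 20.2 CPM in WT. The 4 stromal markers summed to 3.84 to 4.14 CPM in KO clone 1, 1.7 to 2.99 CPM in KO clone 2 and 1.49 to 2.31 CPM in WT, and the 4 endothelial markers to 5.99 to 6.29 CPM in KO clone 1, 8.13 to 9.14 CPM in KO clone 2 and 7.53 to 7.88 CPM in WT. The part of these markers in the results was not tested either. In bulk RNA, fewer cells that express a gene and less RNA per cell cannot be told apart.

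Genes of the list changed in both directions in each clone. The co-receptor gene ENG, the inhibitory SMAD6 gene and the ID2 gene were lower in both clones, while SMAD7, ID1 and ID3 were higher in both. SMAD1 was not detected in KO clone 1 and was present in KO clone 2. Of the 46 genes, 35 passed the filter on low counts, and 11 did not. SMAD1 and HIC1 passed only through KO clone 2 and WT, since their mean in KO clone 1 lay under the 0.265 CPM that the filter asks for at the median depth. A gene is called here at an adjusted p under 0.05 where the log2 fold change is also 1 or more in size.

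In KO clone 1 against WT, 9 of the 35 genes were higher and 17 were lower at the adjusted p, against 17.4% and 18.8% of all 20655 genes tested (36.2% in either direction). Of them 13, or 37.1%, were called, against 7.58% of all genes. Of these 4 were higher, against 2.60% of all genes, and 9 were lower, against 4.98% of all genes. The 9 include SMAD1 and HIC1, which passed the filter only through KO clone 2 and WT. Their calls are not read as support in any contrast that uses KO clone 1. In KO clone 2 against WT, 10 were higher and 13 were lower, against 14.4% and 16.1% of all genes (30.5% in either direction). There 4, or 11.4%, were called, against 5.96% of all genes, and all 4 were lower, against 4.13% of all genes. The median log2 fold change of the 35 was -0.10 in KO clone 1 and -0.02 in KO clone 2, and that of all genes was 0.0013 and -1e-04. For the mean of both clones against WT, 9 were higher and 17 were lower, against 16.4% and 18.9% of all genes. Of them 9 were called, against 6.53% of all genes, with 3 higher and 6 lower, against 2.00% and 4.53% of all genes. With all 6 knockout libraries fitted as 1 group, 11 were lower. The share of all genes in that fit is not given here, so this count is not read as a result about the list. Past the adjusted p in both clones, 7 genes were higher, against 8.52% of all genes, and 11 were lower, against 11.0% of all genes, and SMAD1 and BMPR1B had opposite signs.

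**Figure D1:**
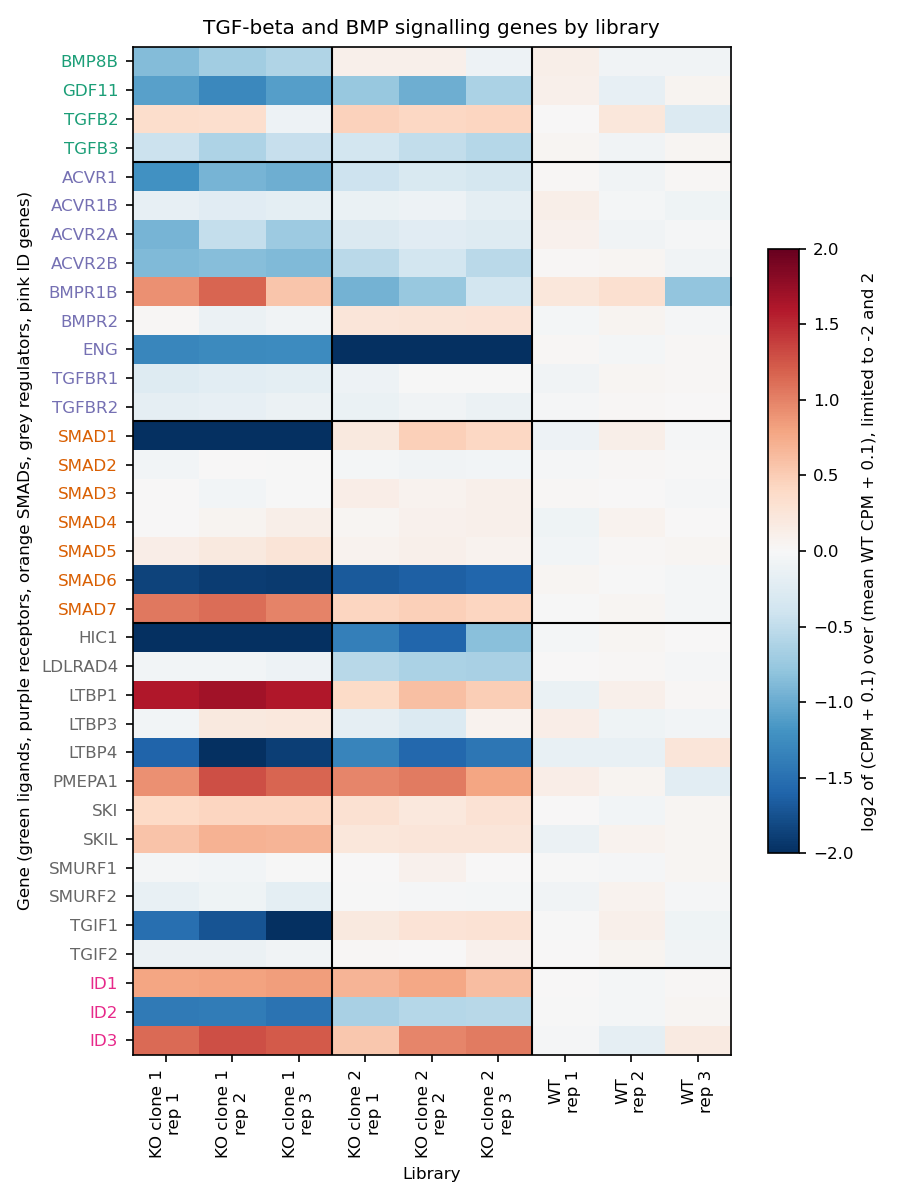
Heat map of the 35 TGF-beta and BMP signalling genes that passed the filter (rows, grouped by role) in the 9 libraries (columns: KO clone 1, KO clone 2, WT). Colour is the log2 of CPM plus 0.1 over the mean WT CPM plus 0.1, limited to -2 and 2. ENG, SMAD6 and ID2 are blue in all 6 knockout libraries, SMAD7, ID1 and ID3 are red in them, and SMAD1 is dark blue in KO clone 1 alone.

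Promoter sequences are shown for the 7 genes that carry these patterns, so that ENG, SMAD6 and ID2 (lower in both clones), SMAD7, ID1 and ID3 (higher in both) and SMAD1 (not detected in KO clone 1) can be read side by side. Each is the 250 bases before the RefSeq start of the gene on GRCh38.p14, written 5′ to 3′ on the strand of the gene. The gene positions given below are from GENCODE, and by these the ID2 window lies inside the gene. By the same positions the SMAD1 and ID1 windows end past the gene start. The table of RefSeq promoters held 42 of the 46 genes. Capitals mark matches, on either strand, to the short SMAD-binding element (AGAC or GTCT) and to the GC-rich elements GGAGCC or GGCTCC and GGCGCC. Overlapping matches run together. The windows are chr9:127854659-127854908 on the minus strand (ENG), chr15:66701986-66702235 on the plus strand (SMAD6), chr2:8681806-8682055 on the plus strand (ID2), chr18:48950966-48951215 on the minus strand (SMAD7), chr20:31605039-31605288 on the plus strand (ID1), chr1:23559502-23559751 on the minus strand (ID3) and chr4:145481056-145481305 on the plus strand (SMAD1).
ENG: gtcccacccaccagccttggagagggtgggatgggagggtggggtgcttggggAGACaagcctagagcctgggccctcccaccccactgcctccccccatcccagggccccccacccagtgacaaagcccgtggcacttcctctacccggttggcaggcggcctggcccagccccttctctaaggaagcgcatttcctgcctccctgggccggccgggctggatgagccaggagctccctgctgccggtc
SMAD6: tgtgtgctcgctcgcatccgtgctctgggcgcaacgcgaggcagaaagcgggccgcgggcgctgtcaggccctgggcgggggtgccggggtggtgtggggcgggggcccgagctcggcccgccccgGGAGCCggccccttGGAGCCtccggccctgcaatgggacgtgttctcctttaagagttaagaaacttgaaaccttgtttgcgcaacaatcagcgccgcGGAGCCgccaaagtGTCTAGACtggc
ID2: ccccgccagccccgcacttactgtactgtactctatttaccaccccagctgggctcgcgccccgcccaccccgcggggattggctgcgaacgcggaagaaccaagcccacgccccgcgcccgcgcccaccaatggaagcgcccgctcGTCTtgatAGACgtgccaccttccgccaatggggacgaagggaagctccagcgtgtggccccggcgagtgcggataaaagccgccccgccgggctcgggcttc
SMAD7: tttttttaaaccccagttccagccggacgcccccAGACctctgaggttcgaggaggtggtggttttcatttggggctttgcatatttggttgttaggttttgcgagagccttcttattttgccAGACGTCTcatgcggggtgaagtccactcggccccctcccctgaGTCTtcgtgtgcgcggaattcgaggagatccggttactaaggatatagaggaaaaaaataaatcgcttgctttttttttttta
ID1: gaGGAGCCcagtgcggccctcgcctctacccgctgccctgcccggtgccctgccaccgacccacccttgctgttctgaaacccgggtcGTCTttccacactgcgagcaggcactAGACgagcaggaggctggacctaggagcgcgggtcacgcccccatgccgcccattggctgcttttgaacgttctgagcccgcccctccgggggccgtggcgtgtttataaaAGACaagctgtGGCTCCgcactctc
ID3: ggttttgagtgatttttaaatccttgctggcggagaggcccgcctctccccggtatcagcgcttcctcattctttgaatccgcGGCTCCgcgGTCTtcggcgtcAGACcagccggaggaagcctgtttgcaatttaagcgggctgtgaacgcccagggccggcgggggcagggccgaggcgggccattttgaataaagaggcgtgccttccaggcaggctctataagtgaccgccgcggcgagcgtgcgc
SMAD1: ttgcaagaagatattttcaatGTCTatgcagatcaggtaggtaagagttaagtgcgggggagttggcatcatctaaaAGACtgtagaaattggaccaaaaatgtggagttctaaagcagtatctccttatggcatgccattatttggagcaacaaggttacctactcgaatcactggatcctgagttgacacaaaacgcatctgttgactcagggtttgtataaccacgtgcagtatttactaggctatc
The SMAD-binding element matched 4 times in the SMAD7 window, 3 times in the ID1 window, 2 times each in the SMAD6, ID2, ID3 and SMAD1 windows and 1 time in the ENG window. Of 35116 promoter windows of this length, 77.5% held it. GGAGCC or GGCTCC matched 3 times in SMAD6, 2 times in ID1, 1 time in ID3 and 0 times in the other 4, and 30.6% of all windows held it. GGCGCC, held by 16.4% of all windows, matched in none of these 7. Genes that were lower and genes that were higher both held the first element. The E-box CAGCTG matched 1 time in the ID2 window (14% of all windows) and CACGTG 1 time in the SMAD1 window (6.34% of all windows). A match describes these letters and does not show a bound site.

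RNA of the 9 ligands listed was at or below 2.24 CPM per kb of exon in WT. They are not the whole family, and the level of ligands outside the list is not described here. Of the 9, 4 passed the filter. Of those 4, 3 were lower in KO clone 1 (18.8% of all genes were lower) and 2 were lower in KO clone 2 (16.1% of all genes were lower), and 0 were higher by edgeR's adjusted p in either clone. TGFB3, which encodes a TGF-beta isoform, had the highest level per kb of exon of the 9. It had 8.64, 7.64 and 8.5 CPM in KO clone 1 and 9.07, 8.27 and 7.83 CPM in KO clone 2, against 12, 11.2 and 12 CPM in WT. All 6 knockout libraries lay below the WT libraries, and the log2 fold change was -0.51 in KO clone 1 (SE 0.0909, adjusted p = 1.56e-05) and -0.48 in KO clone 2 (SE 0.0881, adjusted p = 2.63e-05). GDF11, an activin-type ligand that signals through ACVR2A and ACVR2B, had 3.48, 2.98 and 3.44 CPM in KO clone 1 and 4.39, 3.76 and 4.77 CPM in KO clone 2, against 7.98, 6.68 and 7.73 CPM in WT. It was again lower in all 6 knockout libraries, with a log2 fold change of -1.18 in KO clone 1 (adjusted p = 2.35e-10) and -0.79 in KO clone 2 (adjusted p = 5.86e-07). Of its stranded counts, 59.8% lay on the opposite strand, and with counts that disregard strand the KO clone 1 change was -0.44 and was not called.

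BMP8B was lower in KO clone 1, at 4.54 ± 0.411 CPM, against 7.53 ± 0.595 CPM in WT (SD, n = 3 each; log2 fold change -0.72, adjusted p = 9.55e-07), and KO clone 2 was at 7.73 ± 0.622 CPM (0.04, adjusted p = 0.842). Reads of BMP8B and its near-identical neighbour BMP8A may be split between them. TGFB2 was at 1.21 CPM in KO clone 1, 1.43 CPM in KO clone 2 and 1.03 CPM in WT and passed the adjusted p in no contrast. The other 5 ligands did not pass the filter. BMP4, a ligand of the mesoderm and blood, had 0 counts in KO clone 1, 4 counts in KO clone 2 and 27 counts in WT. The stress-induced GDF15 had 14 counts in each clone and 15 in WT, INHBA and BMP6 had at most 4 counts in any group, and BMP2 had 0 counts in all 9 libraries.

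Among the receptors, ENG showed the largest changes past the fold minimum. ENG (ENSG00000106991, chromosome 9, 127815013 to 127854658, GRCh38) encodes endoglin, or CD105, a co-receptor that binds TGF-beta and BMP ligands together with the signalling receptors. It had 48.5, 49.4 and 50 CPM in KO clone 1 and 30.1, 27.9 and 28.5 CPM in KO clone 2, against 121, 116 and 122 CPM in WT. The 3 groups did not overlap, with KO clone 2 lowest. ENG was at 0.412 times WT in KO clone 1 (log2 fold change -1.28, SE 0.0401, adjusted p = 2.39e-27) and 0.241 times WT in KO clone 2 (-2.05, SE 0.0414, adjusted p = 5.53e-34), and KO clone 2 over KO clone 1, the order of every clone difference given here, was at -0.77 (SE 0.0436, adjusted p = 5.99e-18). The other TGF-beta co-receptor gene, TGFBR3, had 0 counts in all 6 knockout libraries and 22 counts in WT, at least 6.08-fold lower in KO clone 1 and at least 8.02-fold lower in KO clone 2 against a floor of 3 counts over the group. It did not pass the filter.

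ACVR1, ACVR2A and ACVR2B were lower in both clones, and each was higher in KO clone 2 than in KO clone 1 (adjusted p = 3.47e-07, 0.000545 and 1.86e-05). ACVR1, a type I receptor of BMP and activin ligands, had 5.16, 6.3 and 6.11 CPM in KO clone 1 and 9.04, 9.85 and 9.51 CPM in KO clone 2, against 12.4, 11.6 and 12.4 CPM in WT. The groups did not overlap (log2 fold change -1.05 in KO clone 1, adjusted p = 3.17e-12, and -0.36 in KO clone 2, adjusted p = 0.00113). Without KO clone 1 replicate 1 the KO clone 1 change was -0.97 and was not called. The type II receptor gene ACVR2B had 13.6, 13.9 and 13.6 CPM in KO clone 1 and 17.3, 19.6 and 17.3 CPM in KO clone 2, against 25.6, 25.9 and 24.1 CPM in WT, log2 changes of -0.88 in KO clone 1 (adjusted p = 3.15e-14) and -0.48 in KO clone 2 (adjusted p = 7.39e-08). Its relative ACVR2A fell by 0.70 in KO clone 1 (adjusted p = 9.72e-08) and by 0.26 in KO clone 2 (adjusted p = 0.0224).

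The main TGF-beta receptors changed little. TGFBR2, which binds the ligand first, was at 71 ± 1.81 CPM in KO clone 1 and 73.1 ± 1.47 CPM in KO clone 2, against 78.9 ± 1.59 CPM in WT (SD, n = 3 each), falls of 0.15 (adjusted p = 0.00116) and 0.11 (adjusted p = 0.0188) on the log2 scale. TGFBR1, the type I partner, fell by 0.22 in KO clone 1 (adjusted p = 4.25e-06) and was at -0.04 in KO clone 2 (adjusted p = 0.456). ACVR1B, an activin type I receptor, fell by 0.19 in KO clone 1 (adjusted p = 0.0175) and was at -0.14 in KO clone 2 (adjusted p = 0.0943). BMPR2, the BMP type II receptor, was at -0.05 in KO clone 1 (adjusted p = 0.432) and rose by 0.26 in KO clone 2 (adjusted p = 1.54e-05).

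BMPR1B, a BMP type I receptor, moved in opposite directions at a low level. It had 1.83, 2.2 and 1.41 CPM in KO clone 1 and 0.436, 0.507 and 0.701 CPM in KO clone 2, against 1.1, 1.19 and 0.493 CPM in WT. KO clone 1 lay above WT in all libraries, and KO clone 2 overlapped WT. The log2 fold change was 0.94 in KO clone 1 (adjusted p = 0.00331) and -0.78 in KO clone 2 (adjusted p = 0.041), and the clones differed by -1.71 (SE 0.276, adjusted p = 4.86e-06). Against WT it passed the fold minimum in KO clone 1 at 1.10 without KO clone 1 replicate 3, 1.06 without WT replicate 1 and 1.16 without WT replicate 2, and in KO clone 2 at -1.0 without KO clone 2 replicate 3 and -1.05 without WT replicate 3. Apart from ACVR1, described above, the remaining BMP type I receptors were near 0. BMPR1A had 3 counts in KO clone 1, 4 in KO clone 2 and 16 in WT, and ACVRL1 had at most 2 counts in any group.

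**Figure D2:**
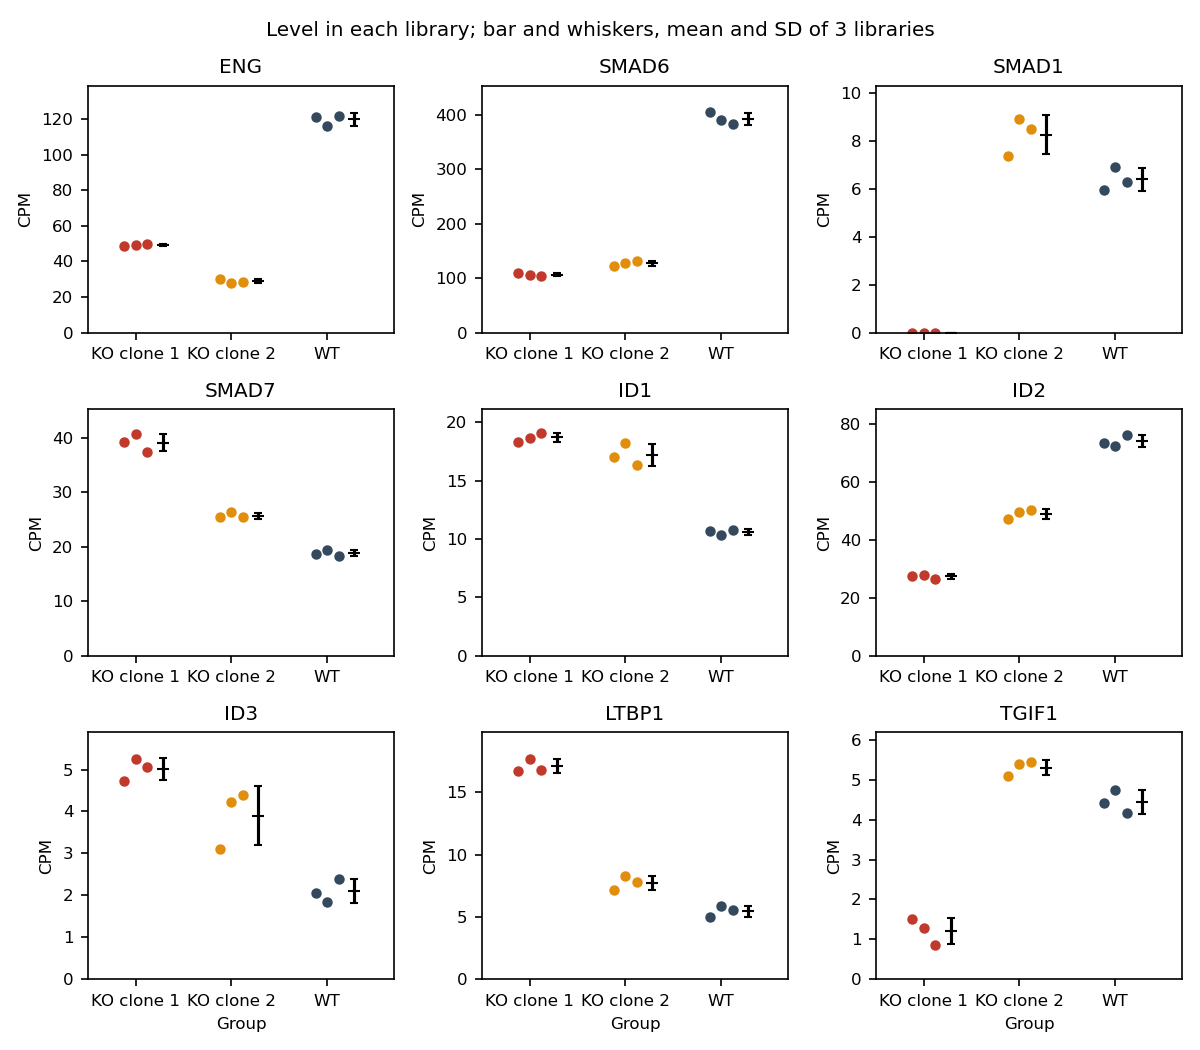
CPM of 9 genes in each library (points), with the mean and SD of the 3 libraries of each group (bar and whiskers), for KO clone 1, KO clone 2 and WT; axes start at 0. SMAD1 is at 0 in all KO clone 1 libraries and at 7.35 to 8.91 CPM in KO clone 2, and ENG is at 27.9 to 50 CPM in the knockout libraries and 116 to 122 CPM in WT.

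SMAD1 (ENSG00000170365, chromosome 4, 145481194 to 145559176, GRCh38), which carries BMP signals, was detected in KO clone 2 and WT and not in KO clone 1. It had 0 counts in each of the 3 KO clone 1 libraries, among 91890066 counted read pairs, and 7.35, 8.91 and 8.49 CPM in KO clone 2, against 5.95, 6.9 and 6.29 CPM in WT. Counts that disregard strand also gave 0 in KO clone 1, with 802 in KO clone 2 and 549 in WT. SMAD1 was therefore at least 196-fold lower in KO clone 1 than in WT, and at least 253-fold lower than in KO clone 2, against a floor of 3 counts over the group. The edgeR adjusted p in KO clone 1 (1.63e-23) belongs to the fitted change and not to this bound. It is not read as support, since SMAD1 passed the filter only through KO clone 2 and WT. In KO clone 2 SMAD1 rose by 0.37 (SE 0.111, edgeR adjusted p = 0.00902). In the authors' deposited table, which sets both clones together against WT, SMAD1 was at a log2 fold change of -0.55 (adjusted p = 0.934), and with all 6 knockout libraries as 1 group it was at -0.58 here (adjusted p = 0.816).

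Genes on either side of SMAD1 had RNA in KO clone 1. Of the genes that reach within 1 Mb on each side, 12 other genes had at least 1 CPM in WT, and their ratio to WT was 0.813 to 1.99 in KO clone 1 and 0.888 to 1.55 in KO clone 2. The upstream neighbours OTUD4, ABCE1 and ANAPC10 had 0.979, 0.987 and 0.937 times the WT level in KO clone 1. The downstream neighbours MMAA and ZNF827 had 0.837 and 1.18 times. ENSG00000278943, the nearest of the 12 upstream, had 0.813 times. Farther upstream, HHIP and HHIP-AS1 had 1.7 and 1.99 times in KO clone 1 and 1.44 and 1.55 times in KO clone 2. Counts per gene do not show whether the SMAD1 locus itself differs in DNA, which was not examined.

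**Figure D3:**
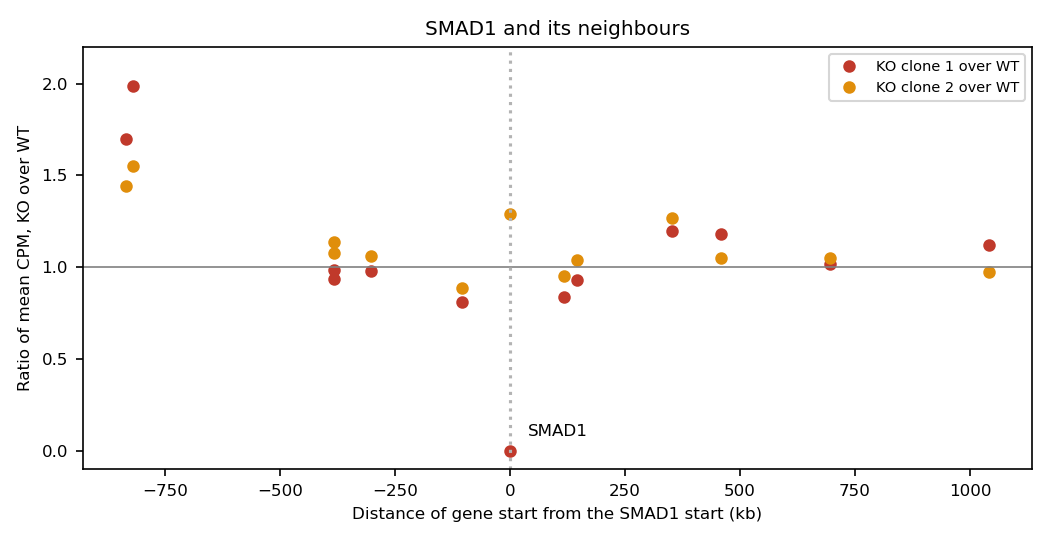
Ratio of mean CPM over WT for SMAD1 and the 12 genes that reach within 1 Mb of it that had at least 1 CPM in WT (points: KO clone 1 and KO clone 2), by the distance of the gene start from the SMAD1 start in kb. SMAD1 is at 0 in KO clone 1, while its neighbours in that clone lie between 0.813 and 1.99.

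The log2 fold changes of SMAD2, SMAD3, SMAD4 and SMAD5 lay between -0.05 and 0.19 in both clones. SMAD5, the second BMP SMAD, rose by 0.19 in KO clone 1 (adjusted p = 0.000556), at 51.2 ± 2.31 CPM against 44.8 ± 1.55 CPM in WT, and was at 47.4 ± 0.741 CPM in KO clone 2 (0.08, adjusted p = 0.173; SD, n = 3 each). SMAD9 had 1 count in KO clone 1, 0 counts in KO clone 2 and 24 counts in WT, at least 8.67-fold lower in KO clone 2 than in WT against a floor of 3 counts over the group. Of its stranded counts 96.1% lay on the opposite strand, and it did not pass the filter. SMAD2 and SMAD3, which carry TGF-beta and activin signals, lay between -0.05 and 0.10 in both clones, and of these only the SMAD3 change in KO clone 2 passed the adjusted p (0.10, adjusted p = 0.02). SMAD4, the shared partner, was at 0.07 in each clone (adjusted p = 0.219 and 0.178).

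The inhibitory SMADs moved in opposite directions. SMAD6 (ENSG00000137834, chromosome 15, 66702236 to 66782849), which chiefly restrains BMP receptors, had 109, 105 and 104 CPM in KO clone 1 and 122, 127 and 131 CPM in KO clone 2, against 404, 390 and 382 CPM in WT. Every knockout library was far below every WT library. SMAD6 was at 0.271 times WT in KO clone 1 (log2 fold change -1.88, SE 0.0331, adjusted p = 3.47e-36) and 0.324 times WT in KO clone 2 (-1.63, SE 0.0324, adjusted p = 3.62e-34), and the clones differed by 0.26 (SE 0.0331, adjusted p = 6.37e-08). SMAD7 (ENSG00000101665, chromosome 18, 48919853 to 48950965), which restrains both branches, had 39.2, 40.7 and 37.4 CPM in KO clone 1 and 25.4, 26.3 and 25.4 CPM in KO clone 2, against 18.7, 19.4 and 18.3 CPM in WT. The 3 groups did not overlap, with KO clone 1 highest. SMAD7 rose by 1.05 in KO clone 1 (SE 0.0567, adjusted p = 2.61e-19) and by 0.45 in KO clone 2 (SE 0.0572, adjusted p = 2.43e-08), and the clones differed by -0.61 (adjusted p = 8.9e-12).

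The ID genes split in the same way, with ID2 lower and ID1 and ID3 higher in both clones. ID2 (ENSG00000115738, chromosome 2, 8678845 to 8684461), which restrains E proteins in lymphoid and myeloid development, had 27.6, 27.9 and 26.5 CPM in KO clone 1 and 47.1, 49.7 and 50.3 CPM in KO clone 2, against 73.5, 72.4 and 76.3 CPM in WT. The groups did not overlap, and KO clone 1 was lowest. The log2 fold change was -1.44 in KO clone 1 (SE 0.0455, adjusted p = 3.37e-27) and -0.59 in KO clone 2 (SE 0.042, adjusted p = 2.29e-15), and the clones differed by 0.84 (SE 0.0463, adjusted p = 2.65e-18).

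ID1 (ENSG00000125968, chromosome 20, 31605283 to 31606515) had 18.3, 18.6 and 19.1 CPM in KO clone 1 and 17, 18.2 and 16.3 CPM in KO clone 2, against 10.7, 10.3 and 10.8 CPM in WT. Both clones lay above WT in all libraries, by 0.82 in KO clone 1 (SE 0.0733, adjusted p = 2.37e-12) and 0.69 in KO clone 2 (SE 0.0722, adjusted p = 1.74e-10). The clones differed by -0.12 (SE 0.0696, edgeR adjusted p = 0.212), and a link of ID1 to the level of SMAD1 was not tested. ID3 (ENSG00000117318, chromosome 1, 23557926 to 23559501) had 4.72, 5.25 and 5.06 CPM in KO clone 1 and 3.1, 4.22 and 4.39 CPM in KO clone 2, against 2.06, 1.83 and 2.4 CPM in WT. It rose by 1.27 in KO clone 1 (SE 0.15, adjusted p = 3.33e-09) and by 0.90 in KO clone 2 (SE 0.15, adjusted p = 5.02e-06). The KO clone 2 change was called at 1.04 without KO clone 2 replicate 1 and at 1.01 without WT replicate 3, and the mean of both clones, 1.09, was not called at 0.99 without WT replicate 2. ID4 had 6 counts in KO clone 1, 0 in KO clone 2 and 5 in WT and did not pass the filter.

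**Figure D4:**
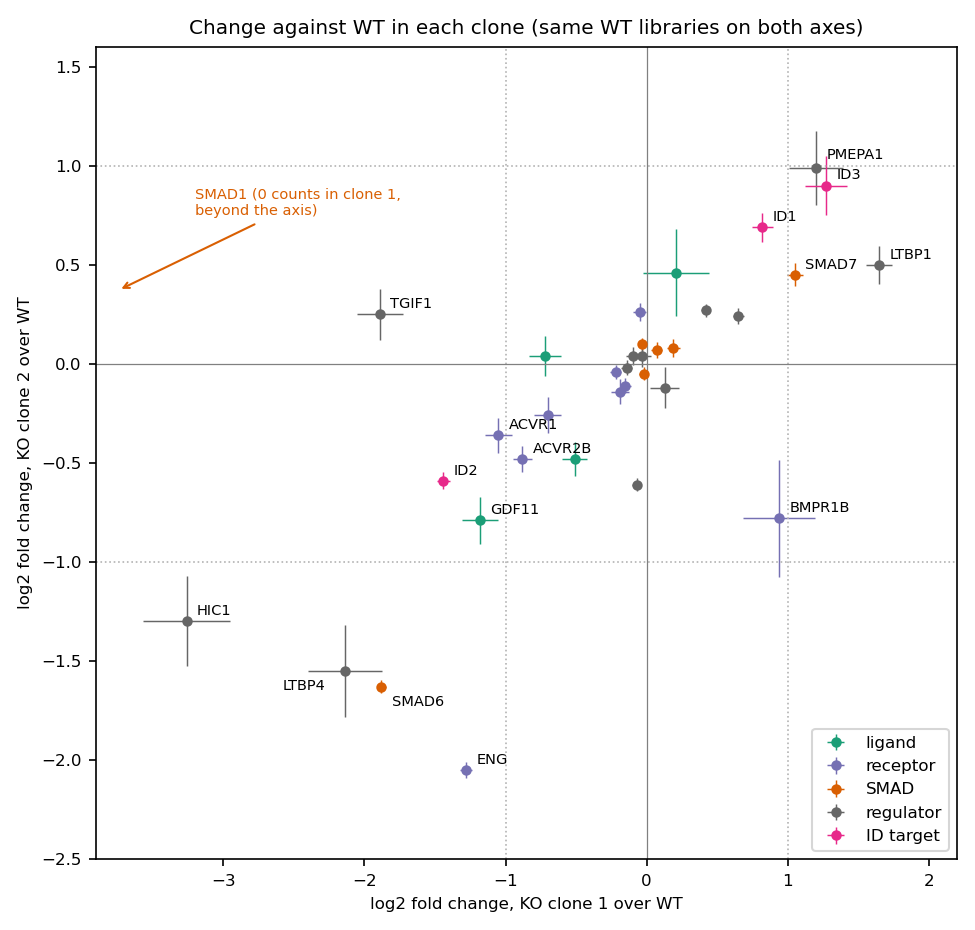
Log2 fold change over WT in KO clone 1 (x axis) and KO clone 2 (y axis) for the genes that passed the filter, coloured by role, with SE bars; dotted lines mark the fold minimum of 1, and both axes share the 3 WT libraries. SMAD1, with 0 counts in KO clone 1, lies beyond the left edge. ENG, SMAD6, LTBP4 and HIC1 lie past -1 on both axes, and HIC1 passed the filter only through KO clone 2 and WT.

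Among the regulators, the nuclear corepressors SKI and SKIL, which bind and silence SMAD complexes, were higher in both clones. SKI, the regulator with the highest level per kb of exon, had 207, 212 and 211 CPM in KO clone 1 and 194, 181 and 192 CPM in KO clone 2, against 158, 151 and 162 CPM in WT. Both clones were above WT throughout, by 0.42 in KO clone 1 (adjusted p = 1.09e-14) and 0.27 in KO clone 2 (adjusted p = 2.61e-09). SKIL was at 120 ± 5.35 CPM in KO clone 1 and 90 ± 0.574 CPM in KO clone 2, against 76.4 ± 5.04 CPM in WT (SD, n = 3 each), rises of 0.65 in KO clone 1 (adjusted p = 4.94e-17) and 0.24 in KO clone 2 (adjusted p = 7.25e-06). The corepressor TGIF1, a homeodomain protein, had 1.5, 1.27 and 0.859 CPM in KO clone 1 and 5.09, 5.39 and 5.45 CPM in KO clone 2, against 4.41, 4.75 and 4.16 CPM in WT. It was lower in KO clone 1 (-1.89, SE 0.165, adjusted p = 9.85e-13) and at 0.25 in KO clone 2 (adjusted p = 0.134), and the clones differed by 2.15 (SE 0.161, adjusted p = 4.01e-14). Its relative TGIF2 was at -0.10 in KO clone 1 (adjusted p = 0.094) and 0.04 in KO clone 2 (adjusted p = 0.574).

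The latent TGF-beta binding proteins, which hold the inactive ligand in the matrix, did not move together. LTBP1 had 16.7, 17.7 and 16.8 CPM in KO clone 1 and 7.18, 8.3 and 7.76 CPM in KO clone 2, against 4.98, 5.85 and 5.55 CPM in WT. The groups did not overlap, and the level in KO clone 1 was 3.13 times that of WT. The change was 1.65 in KO clone 1 (SE 0.0916, adjusted p = 8.34e-19) and 0.50 in KO clone 2 (SE 0.0957, adjusted p = 4.74e-05), a difference of -1.14 (adjusted p = 6.92e-14). LTBP4 had 0.622, 0.31 and 0.491 CPM in KO clone 1 and 0.776, 0.64 and 0.701 CPM in KO clone 2, against 1.88, 1.88 and 2.5 CPM in WT. All 6 knockout libraries were lower, with log2 changes of -2.14 in KO clone 1 (SE 0.263, adjusted p = 8.32e-09) and -1.55 in KO clone 2 (SE 0.231, adjusted p = 7.35e-07). LTBP3 was at 0.13 in KO clone 1 (adjusted p = 0.368) and -0.12 in KO clone 2 (adjusted p = 0.436), with 80% of its stranded counts on the opposite strand.

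PMEPA1, a TGF-beta-induced membrane protein that sequesters receptor SMADs, had 2.2, 2.89 and 2.64 CPM in KO clone 1 and 2.3, 2.4 and 2.01 CPM in KO clone 2, against 1.23, 1.17 and 0.955 CPM in WT. Both clones were above WT in all libraries (1.20 in KO clone 1, SE 0.189, adjusted p = 1.56e-06; 0.99 in KO clone 2, SE 0.187, adjusted p = 4.15e-05). The KO clone 2 change was called at 1.06 without KO clone 2 replicate 3 or without WT replicate 1, and at 1.02 without WT replicate 2. LDLRAD4, its relative, was at 131 ± 2.68 CPM in KO clone 1 and 90.2 ± 2.98 CPM in KO clone 2, against 138 ± 2.74 CPM in WT (SD, n = 3 each). It fell by 0.61 in KO clone 2 (adjusted p = 6.22e-19) and was at -0.07 in KO clone 1 (adjusted p = 0.0837), and the clones differed by -0.54 (adjusted p = 1.91e-16). HIC1, a zinc finger repressor often silenced in cancer, had 0.11, 0.341 and 0.215 CPM in KO clone 1 and 0.8, 0.667 and 1.19 CPM in KO clone 2, against 2.14, 2.27 and 2.22 CPM in WT. The groups did not overlap. The log2 fold change was -3.26 in KO clone 1 (SE 0.308, edgeR adjusted p = 9.76e-12) and -1.30 in KO clone 2 (SE 0.227, edgeR adjusted p = 1.16e-05). HIC1 passed the filter only through KO clone 2 and WT, so its separation and p-value in KO clone 1 are not read as support. Of its stranded counts 94.6% lay on the opposite strand, and with counts that disregard strand HIC1 was at -0.67 in KO clone 2 and was not called there, and the clones differed by 0.43 (adjusted p = 0.0857) in place of 1.96.

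Values of the ubiquitin ligases SMURF1 and SMURF2, which degrade receptors and SMADs, were close to those in WT. SMURF1 was at -0.03 in KO clone 1 (adjusted p = 0.748) and 0.04 in KO clone 2 (adjusted p = 0.697). SMURF2 fell by 0.14 in KO clone 1 (adjusted p = 0.00371) and was at -0.02 in KO clone 2 (adjusted p = 0.727). The decoy receptor gene BAMBI had 0 counts in KO clone 1 and in WT and 2 counts in KO clone 2.

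Levels were compared between genes only per kb of merged annotated exon. SMAD6 was the highest of the 46 in WT at 45.8 CPM per kb, followed by ID2 at 33.5, ENG at 31.2, SMAD3 at 28.5 and SKI at 23.5. The 3 highest were among the genes lower in both clones. In KO clone 1 SMAD6 and ID2 were each at 12.4 CPM per kb and ENG was at 12.8, below SKI at 31.4 and SMAD3 at 28. By the length of the canonical transcript, an alternative added after the values were seen, SMAD6 and ID2 were again first and second in WT, and SMAD3 at 44.1 stood above ENG at 40.6.

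**Figure D5:**
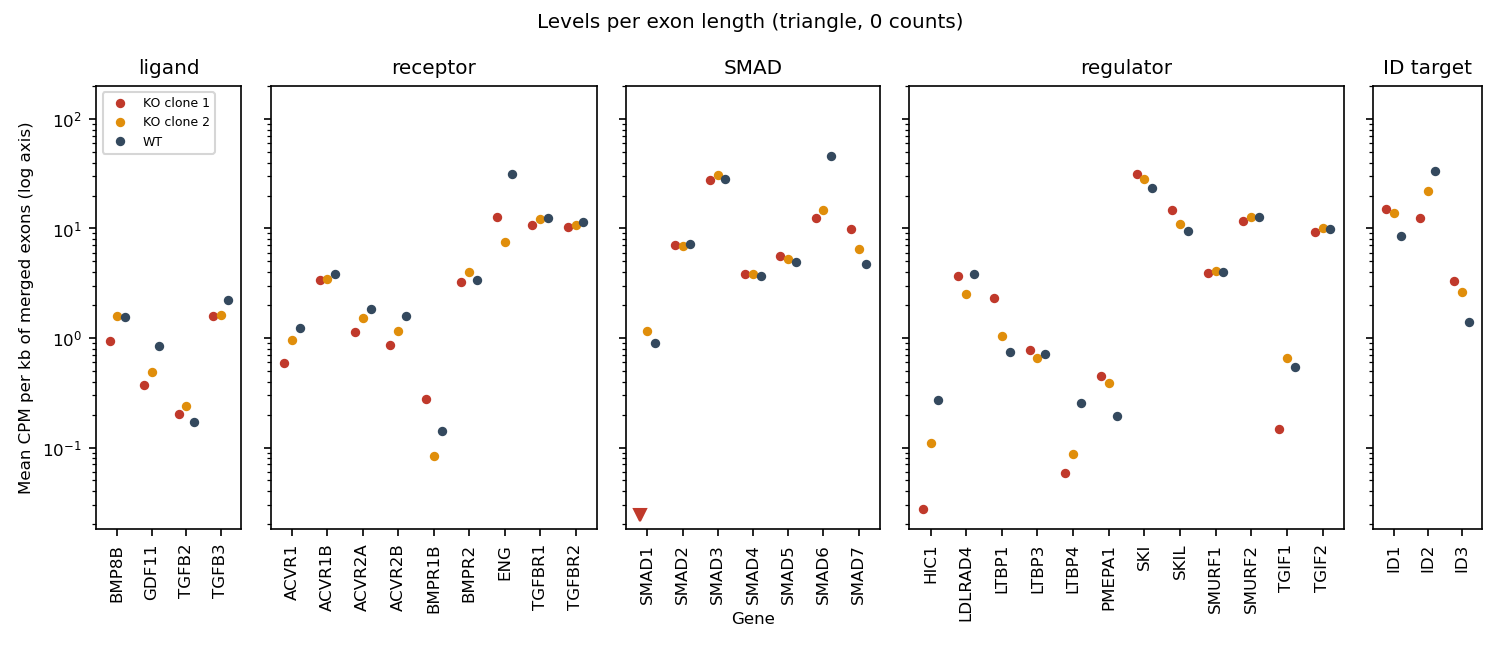
Mean CPM per kb of merged exons (log axis) of the 35 genes that passed the filter, by role, for KO clone 1, KO clone 2 and WT (points; a triangle marks 0 counts). SMAD6, ID2 and ENG are the highest genes in WT at 45.8, 33.5 and 31.2 CPM per kb, and the ligands lie at or below 2.24 in WT.

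Beyond the list, 66 other genes of the pathway, also chosen with earlier results known, were counted, of which 40 passed the filter. In KO clone 1 against WT, 25.0% of the 40 were higher (10 genes) and 27.5% lower (11 genes) by adjusted p, against 17.4% and 18.8% of all genes. In KO clone 2 against WT, 32.5% were higher (13 genes) and 17.5% lower (7 genes), against 14.4% and 16.1% of all genes. Past the fold minimum as well, 6 or 15.0% were called in KO clone 1, against 7.58% of all genes, and 3 or 7.50% in KO clone 2, against 5.96% of all genes. Those of KO clone 2 were NOG, FST and NEDD4L. NOG, which encodes the secreted BMP antagonist noggin, had 20.8, 23.2 and 19 CPM in KO clone 1 and 17, 19.3 and 19.8 CPM in KO clone 2, against 9.94, 9.07 and 8.84 CPM in WT, rises of 1.18 in KO clone 1 (adjusted p = 7.82e-16) and 1.01 in KO clone 2 (adjusted p = 8e-14). The KO clone 2 change was under the fold minimum at 0.99 without KO clone 2 replicate 2, 0.96 without KO clone 2 replicate 3, 0.99 without WT replicate 2 and 0.98 without WT replicate 3. Another BMP antagonist, SOSTDC1, rose by 0.72 in KO clone 1 (adjusted p = 1.46e-08) and 0.49 in KO clone 2 (adjusted p = 2.59e-05). FST, which encodes the activin antagonist follistatin, had 4 counts in KO clone 1, 26 in KO clone 2 and 129 in WT. Its mean was 0.0429 CPM in KO clone 1 and 0.212 CPM in KO clone 2, against 1.18 CPM in WT. FST and NEDD4L passed the filter only through WT, the group where they are high, so their calls are not read as support.

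NEDD4L, a ubiquitin ligase of SMAD2 and SMAD3, had 0.11, 0 and 0.153 CPM in KO clone 1 and 0.0485, 0.08 and 0.0234 CPM in KO clone 2, against 2.53, 2.54 and 2.65 CPM in WT. All 6 knockout libraries lay below the WT libraries, with 8 counts in KO clone 1 and 6 counts in KO clone 2, against 287 counts in WT. Since NEDD4L passed the filter only through WT, this separation is not read as support. THBS1, an activator of latent TGF-beta, was lower, at -2.19 in KO clone 1 (adjusted p = 2.97e-18) and -0.73 in KO clone 2 (adjusted p = 3.47e-07). The opposite strand held 36.3% of the stranded counts of THBS1, and with counts that disregard strand THBS1 was at -0.70 in KO clone 1 and was not called. ACVR1C, an activin-type receptor gene, was at 0.738 ± 0.0662 CPM in KO clone 1 and 1.42 ± 0.307 CPM in KO clone 2, against 2.51 ± 0.526 CPM in WT (SD, n = 3 each). BMP8A, which passed the filter through KO clone 2 and WT only, had a mean of 0.224 CPM in KO clone 1, 0.658 CPM in KO clone 2 and 0.958 CPM in WT, with the limit given for BMP8B. The opposite strand held 87.4% of its stranded counts, and with counts that disregard strand its KO clone 1 change was -0.09 and was not called. Its call in KO clone 1 with the stranded counts is not read as support either. Response genes of the pathway, such as JUNB, GADD45B and CCN1, were tested in 11 cases. In KO clone 1, 9.09% were higher (1 gene) and 27.3% lower (3 genes), against 17.4% and 18.8% of all genes. In KO clone 2, 9.09% were higher (1 gene) and 9.09% lower (1 gene), against 14.4% and 16.1% of all genes. By edgeR, 0 of the 11 were called in either clone, against 7.58% and 5.96% of all genes. TGFBI, which passed the filter only through WT, had 13 counts in KO clone 1, 16 in KO clone 2 and 39 in WT. It was called in the mean of both clones (-1.35, edgeR adjusted p = 0.0232), which is not read as support. The call was lost with strand disregarded, with the knockout libraries as 1 group and by DESeq2. It was also lost without KO clone 2 replicate 2, KO clone 2 replicate 3 or WT replicate 3.

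KO clone 2 against KO clone 1 was compared directly. Of the 35 genes, 15 were higher and 8 lower by adjusted p, against 13.4% and 12.6% of all genes. The 5 genes called, against 2.82% of all genes, were SMAD1, TGIF1 and HIC1, higher in KO clone 2 (background 1.58% of all genes), and LTBP1 and BMPR1B, lower in KO clone 2 (background 1.23% of all genes). SMAD1 and HIC1 passed the filter only through KO clone 2 and WT, so their calls here are not read as support. Among the 9 receptors tested, 5 were higher and 2 were lower in KO clone 2 than in KO clone 1.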

How the data were processed

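Total RNA of KG-1a cells was sequenced in pairs in 9 libraries. Raw counts of read pairs per gene were made by the authors with STAR on GRCh38, per the submitters' processing notes and the series text; versions and the annotation are not given in the sources used here. Each deposited file holds 3 countings and 4 totals of unassigned pairs (70.4% to 74.1% of pairs, left out). The counting of the strand that held 92.0% to 92.3% of stranded counts was used. The authors' deposited table gave symbols, log2 fold changes and adjusted p-values, both made by the authors with DESeq2 per the series text. That text names apeglm shrinkage, and whether the table holds shrunken values was not established. Its 9 columns of normalized values were not used, and its raw counts equalled, in 9 of 9 libraries, the counting that ignores strand.

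Counts of all genes were filtered with filterByExpr (20655 kept), scaled by trimmed mean of M-values and tested in R 4.3.3 with edgeR 4.0.16 (quasi-likelihood F test, 1 coefficient per group, Benjamini-Hochberg adjustment over all genes). SE is the absolute log2 fold change over the square root of F. CPM uses the scaled library total; a floor of 3 counts was 0.0695 to 0.107 CPM per library and covers counting error only. The test was checked on simulated counts. Exon lengths and positions came from GENCODE release 44, in which 60463 of 60605 identifiers were found, and promoters from RefSeq on GRCh38.p14. DESeq2 1.42.0, other scalings, no filter, counts without regard to strand, fits of the compared groups alone, a replicate block and leaving out each library were the alternatives.

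The members and lists were chosen with earlier results of these data known. Values per library are given for genes called in at least 1 of 4 contrasts, for genes past the adjusted p in both clones in 1 direction with a mean change of at least 0.5, and for the most abundant gene of each role. Protein sequences were not used here.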

Additional observations from a re-analysis of the deposited data

Results flagged for a closer look

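The effects of the clones against WT differed for 14 of the genes described by library. These passed an adjusted p under 0.05 in edgeR's direct contrast of KO clone 2 with KO clone 1, as did 25.9% of all genes. A call in that contrast was among the reasons to describe a gene by library, so the 14 are not read against this share. In log2 fold change of KO clone 2 over KO clone 1, SMAD1 was at 11.22, a fitted value that depends on the prior count because KO clone 1 had 0 counts. TGIF1 was at 2.15, HIC1 at 1.96, ID2 at 0.84, ACVR1 at 0.69, ACVR2B at 0.40, GDF11 at 0.39 and SMAD6 at 0.26. BMPR1B was at -1.71, LTBP1 at -1.14, ENG at -0.77, SMAD7 at -0.61, ID3 at -0.36 and SKI at -0.15. Against WT, SMAD1 and BMPR1B passed the adjusted p with opposite signs in the clones, although BMPR1B in KO clone 2 overlapped WT. TGIF1 in KO clone 2 lay above WT in all libraries without passing it (edgeR adjusted p = 0.134).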

How the results depend on the processing

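Counts of genes past each threshold kept within 1.5 times of the values given in all but 2 planned cases. Without a filter on low counts, 7 genes were called in KO clone 2 against WT in place of 4, the added genes being BMP4, SMAD9 and TGFBR3. With all 6 knockout libraries as 1 group, 11 genes were lower in the mean of both clones in place of 17. The share of all genes in that fit is not given here. Leaving out 1 library at a time gave 12 to 14 called genes in KO clone 1, 4 to 6 in KO clone 2, 8 to 10 in the mean and 5 in every case between the clones. BMP8A in the mean of both clones was at 0.10 with counts that disregard strand in place of -1.29. The opposite strand held 87.4% of its stranded counts, and the cause of the change was not tested. With all 6 knockout libraries as 1 group LTBP1 was at 1.18 (edgeR adjusted p = 0.0708) and ID2 at -0.95 (edgeR adjusted p = 0.0367), neither called. No source says that replicate numbers pair libraries, and deviations from the group means did not correlate by number (-0.014 to 0.012); with the replicate block 13, 4, 9 and 5 genes were called in the 4 contrasts. Of the single-gene values under the alternatives, 1538 kept the same call or lack of one, 32 lost the call (BMP8A above included) and 22 gained it. Depth limits the 11 genes that did not pass the filter, which had at most 12 counts in any library.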
